A study of Mus musculus with 30 samples.

Results

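The chemokine and chemoattractant receptors of the mouse macrophage-like line J774A.1 were taken as the 9 genes Ccr1, Ccr2, Ccrl2, Cx3cr1, Cxcr4, C5ar1, C3ar1, Fpr1 and Fpr2, found by their Ensembl identifiers among the 54146 genes of the deposited count table. The study deleted B2_Mm2.Dicer1, a B2 SINE (a short retrotransposon copy) in an intron of Dicer1, and asked by RNA-seq how its loss changes the response to interferon gamma (IFNG), the type II interferon. The wild-type (WT) arm held 3 single-cell clones (WT1, WT2 and WT3) that had not been electroporated, and the knockout (KO) arm held 2 CRISPR clones (KO1 and KO2) homozygous for the deletion. Each clone was left untreated (UT) or treated with 100 ng/mL mouse IFNG for 4 h, with 3 libraries for each clone and treatment and 30 in all. Every line was thus 1 clone, 3 libraries of 1 clone are not 3 edited lines, and no label places the libraries in separate cultures, so p-values measure the spread between libraries, which may be technical.

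These genes encode receptors with 7 membrane-spanning helices that steer macrophages and other leukocytes along gradients of attractant. Most of them signal through G proteins of the Gi class. Chemokines are small secreted proteins read by the CC, CXC and CX3C receptor families. The complement fragments C5a and C3a and bacterial formyl peptides are read by receptors of a related kind. Many genes induced by IFNG hold a short regulatory sequence called the gamma-IFN activation site (GAS).

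Library sizes ran from 15566122 to 37992642 counted fragments, with a median of 23682133.5. Levels are given as CPM, the counts of a gene scaled to a common library total with TMM factors, which correct for library composition. The treatment registered in both genotypes through Irf1, an IFNG-induced transcription factor, with a log2 fold change (log2FC) of 5.10 ± 0.066 (SE) in pooled WT and 5.13 ± 0.11 in pooled KO. Dicer1 exon counts, which do not cover the deleted intronic element, ranged over 96.7 to 130.2 CPM in untreated WT and 70.5 to 108 CPM in untreated KO libraries, and over 132 to 171 and 71.4 to 105 CPM after IFNG. All 10 macrophage markers examined were detected in each clone, and with IFNG 2 of them rose and 4 fell in pooled WT. Summed levels of the markers of T cells, B cells, neutrophils, mast cells with basophils, and epithelial cells with fibroblasts stayed at or below 3.48 CPM for each list, with Cd3g, Cd8a, Trac, S100a9, Camp, Mcpt8 and Krt18 at 0 counts in every library. Adgre1, which encodes the macrophage surface protein F4/80, differed strongly between clones, from 10.2 ± 1.27 CPM (SD, n = 3) in WT1 to 283 ± 10.8 CPM in KO2 when untreated, and its part in the results was not tested.

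Of the 9 receptors, 7 were expressed and 2 were close to 0. Compared per length, as FPKM (CPM divided by the exon length in kilobases), the complement receptors C3ar1 and C5ar1 were the most abundant. C3ar1, the receptor for C3a, had clone means of 178 to 196 FPKM when untreated, and C5ar1, the receptor for C5a, 139 to 176 FPKM. These ranges did not overlap. Cxcr4, the receptor for the chemokine Cxcl12, followed at 21.9 to 41.5 FPKM. The clone means of Ccrl2 (2.35 to 5.95 FPKM) and Cx3cr1 (0.678 to 14.8 FPKM) overlapped, with Ccr2 at 1.15 to 2.05 FPKM and Ccr1 at 0.0615 to 0.374 FPKM. After IFNG, the order changed in the middle, where Ccrl2 (8.504 to 14.05 FPKM) came to lie above Cxcr4 (2.82 to 7.72 FPKM) in the range of the clones.

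**Figure D1:**
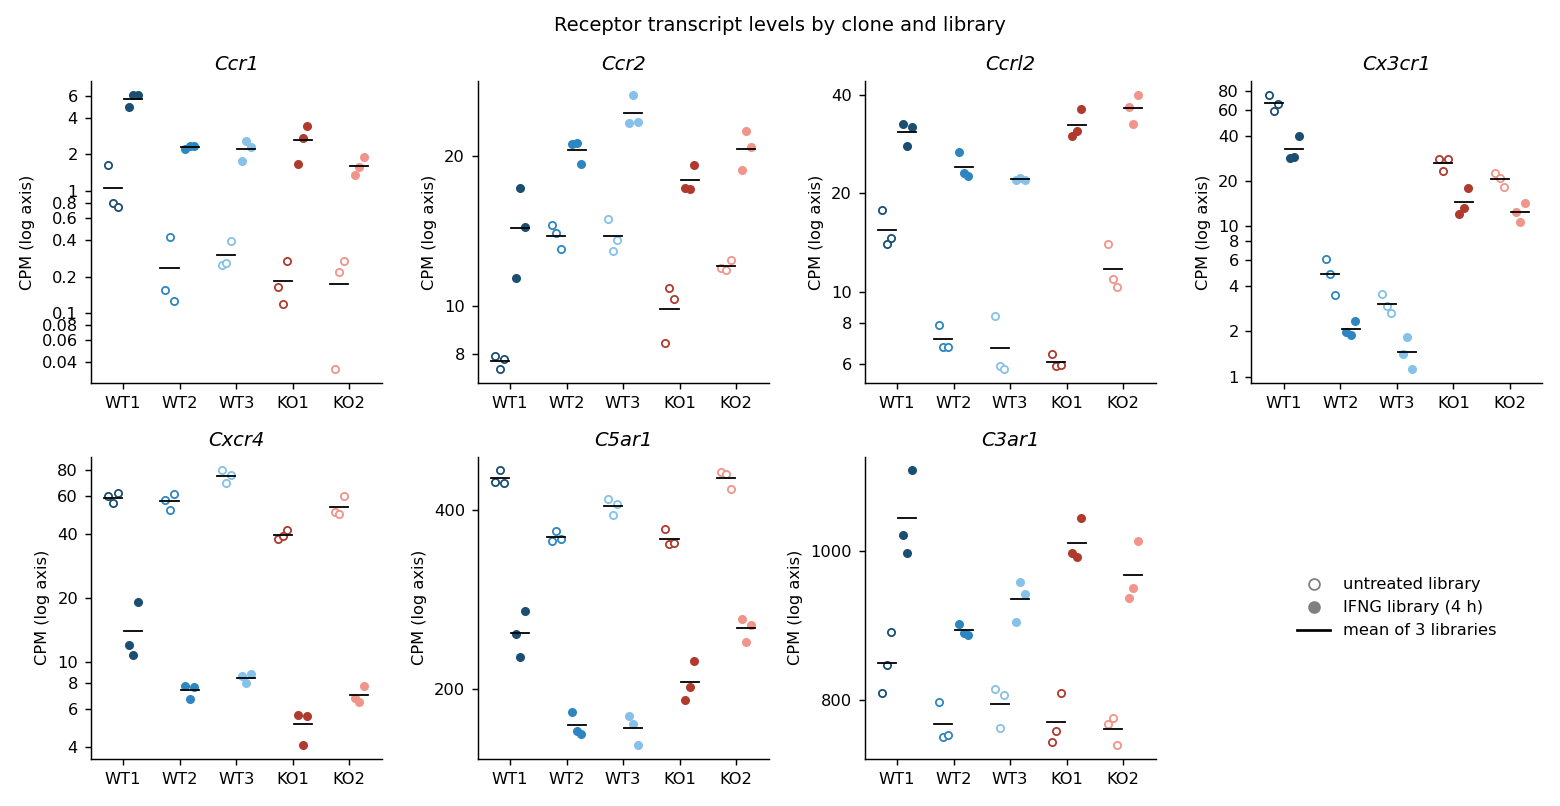
CPM on a log axis for the 7 expressed receptors in each of the 30 libraries, by clone, with untreated libraries as open circles, IFNG libraries as filled circles and black bars for the mean of 3 libraries. In every panel and every clone the treated and untreated libraries separate, upwards for Ccr1, Ccr2, Ccrl2 and C3ar1 and downwards for Cx3cr1, Cxcr4 and C5ar1, while the Cx3cr1 levels of the clones span from 3.06 to 66.5 CPM before treatment.

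The response to IFNG was shared by the clones. In each of the 5 clones, 4 receptors (Ccr1, Ccrl2, Ccr2 and C3ar1) rose and 3 (Cxcr4, Cx3cr1 and C5ar1) fell, with adjusted p-values below 0.05 in edgeR's quasi-likelihood test over all genes. The 7 tested receptors all passed, against 21.2% of all genes tested in WT1 (11.8% higher and 9.47% lower), 34.5% in WT2 (17.4% higher and 17% lower), 36.1% in WT3 (18.6% higher and 17.5% lower), 29.4% in KO1 (16.2% higher and 13.2% lower) and 27.1% in KO2 (13.9% higher and 13.2% lower). In WT2, WT3, KO1 and KO2, and with clones pooled, Ccr1 passed the filter on low counts only through its treated libraries. Its rise there was favoured by the filter and cannot be weighed against these shares. With at least 10 counts in every library, Ccr1 was not tested in WT2, WT3, KO1 or KO2, and the other 6 receptors passed in each. The median log2FC of the 7, which mixes rises and falls, lay between 0.22 in WT2 and 0.42 in KO1. In bulk libraries, fewer cells with a transcript and less transcript per cell cannot be told apart.

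**Figure D2:**
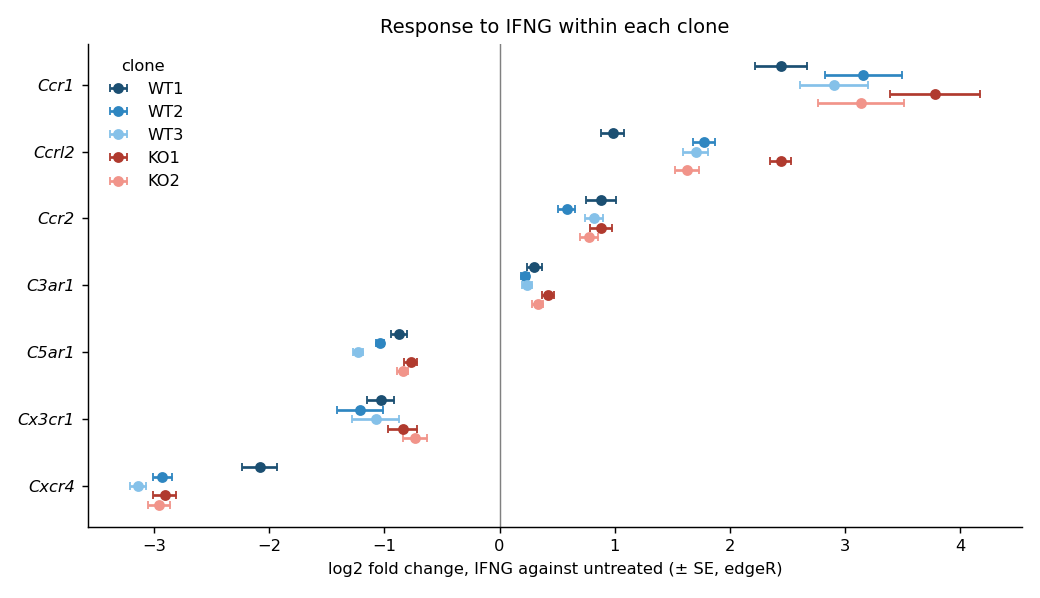
Log2FC of IFNG against untreated libraries (horizontal axis, error bars ± SE from edgeR) for each receptor and clone. The 35 points fall on the same side of 0 for all 5 clones of each receptor, from -3.14 for Cxcr4 in WT3 to 3.78 for Ccr1 in KO1.

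The promoter of Cxcr4, the receptor with the largest fall, is shown beside those of Ccr1 and Ccr2, neighbours on chromosome 9 that rose together. Each sequence gives the 250 bases before the RefSeq start (GRCm38.p6, the build also called mm10), 5′ to 3′ on the strand of the gene, at chr1:128592300-128592549 (minus strand), chr9:123968693-123968942 (minus strand) and chr9:124101933-124102182 (plus strand). Capitals mark TATAAA on either strand (the letters of the TATA box) and the consensus palindrome of the transcription factor NRF1, which is the first run of capitals in the Cxcr4 sequence.
Cxcr4: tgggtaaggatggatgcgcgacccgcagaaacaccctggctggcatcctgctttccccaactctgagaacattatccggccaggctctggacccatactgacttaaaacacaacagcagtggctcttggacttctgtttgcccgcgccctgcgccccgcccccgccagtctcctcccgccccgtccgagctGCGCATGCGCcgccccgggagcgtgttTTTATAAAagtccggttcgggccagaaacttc
Ccr1: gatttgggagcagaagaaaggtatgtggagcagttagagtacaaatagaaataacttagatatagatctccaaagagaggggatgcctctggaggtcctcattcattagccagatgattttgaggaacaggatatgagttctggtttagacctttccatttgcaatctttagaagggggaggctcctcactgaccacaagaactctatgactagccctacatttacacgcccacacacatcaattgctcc
Ccr2: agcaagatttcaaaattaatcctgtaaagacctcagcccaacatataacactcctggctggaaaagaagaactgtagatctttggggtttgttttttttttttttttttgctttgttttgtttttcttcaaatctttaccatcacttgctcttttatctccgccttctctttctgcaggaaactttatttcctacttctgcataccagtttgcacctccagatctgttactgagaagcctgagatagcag
All 9 receptors had an entry in the RefSeq table of promoters, with 3 starts for Ccrl2. RefSeq starts can differ from the gene annotation used for counting. The counted Ccr2 gene begins at 124101950, so most of its window lies inside that gene. The Cx3cr1 window (chr9:120068297-120068546, minus strand) lies wholly inside its counted gene, which reaches 120069879. Windows of C5ar1 and Ccrl2 also reach into their counted genes. The 250 bases before the Cxcr4 start hold TATAAA and an overlapping match on the other strand, from 32 to 25 bases before the start, and the NRF1 palindrome from 59 to 50 bases before it. Over 32851 promoters of the same length, 12.4% hold TATAAA on either strand, as do 4 of the 9 receptors (Cxcr4, C3ar1, Fpr1 and Fpr2), and 0.782% hold the NRF1 palindrome. The TATAAA match lies farther from the start than in Cxcr4 for C3ar1 (235 to 230 bases before it), Fpr1 (227 to 222) and Fpr2 (130 to 125). The GAS letters TTCNNNGAA, present in 7.02% of all promoters, were found for Fpr2 alone among the 9 receptors. The interferon-stimulated response element, searched as GAAA and again GAAA after 2 bases of any kind and present in 2.98%, was found for none. Motifs were searched on both strands, and a missing match says only that these letters are not in the window.

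Cxcr4 fell more than any other of the receptors in every clone. Untreated libraries read 60.1, 55.6 and 62.1 CPM in WT1, 57.6, 52 and 61.5 CPM in WT2 and 79.4, 69.6 and 75.9 CPM in WT3. After IFNG they read 11.99, 10.8 and 19.1 CPM in WT1, 7.73, 6.69 and 7.66 CPM in WT2 and 8.6, 7.94 and 8.81 CPM in WT3. Treated libraries of WT1 were thus higher than those of WT2 and WT3 without overlap. In KO1 the levels went from 37.9, 38.98 and 41.9 CPM to 5.66, 4.06 and 5.55 CPM, and in KO2 from 50.9, 49.6 and 60.2 CPM to 6.79, 6.47 and 7.69 CPM. Mean levels were 4.24-fold lower after IFNG in WT1, 7.75-fold in WT2, 8.88-fold in WT3, 7.77-fold in KO1 and 7.67-fold in KO2. The log2FC was -2.08 ± 0.15 in WT1 (SE, adjusted p = 9.39e-08) and -3.14 ± 0.07 in WT3 (adjusted p = 8.53e-17), the ends of the range over clones. The response differed between the clones (adjusted p = 0.000543 for the 4 clone-by-treatment terms, a test that 3.68% of all genes passed and 3 of the 7 receptors). Without WT1 this difference was lost (adjusted p = 0.78).

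Ccr1 encodes a CC chemokine receptor with many ligands, among them Ccl3, Ccl5 and Ccl9. It rose by the largest factor of the receptors while remaining a low-level transcript. Untreated WT1 libraries read 1.63, 0.803 and 0.746 CPM, and treated ones 4.87, 6.15 and 6.13 CPM. In the other 4 clones, untreated libraries held 1 to 10 fragments each. Their mean levels went from 0.234 ± 0.163 to 2.3 ± 0.0657 CPM in WT2 (SD, n = 3) and from 0.298 ± 0.0786 to 2.21 ± 0.403 CPM in WT3. Those of the KO clones went from 0.184 ± 0.0773 to 2.61 ± 0.887 CPM in KO1 and from 0.174 ± 0.123 to 1.602 ± 0.277 CPM in KO2. No treated library overlapped an untreated one of the same clone. The log2FC ran from 2.44 ± 0.23 in WT1 (adjusted p = 1.83e-06) to 3.78 ± 0.39 in KO1 (adjusted p = 3.90e-06), and a difference between clones did not pass the test (adjusted p = 0.664).

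Ccr2, the receptor for Ccl2 and related monocyte attractants, rose by less than Ccr1. Over the 9 untreated WT libraries its lowest, median and highest levels were 7.46, 13.01 and 14.98 CPM, and over the 9 treated ones 11.4, 21.2 and 26.6 CPM. The 6 KO libraries read 8.45, 11.3 and 12.4 CPM untreated and 17.2, 19 and 22.5 CPM treated. WT1 held the low end under both treatments, and its treated libraries overlapped untreated libraries of WT2 and WT3. Within clones the log2FC lay between 0.58 ± 0.076 in WT2 (adjusted p = 2.62e-06) and 0.88 ± 0.095 in KO1 (adjusted p = 6.42e-06).

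Ccr1 and Ccr2 lie in a cluster of CC receptor genes at chr9:123962124-123968692 and chr9:124101950-124113557 (mm10). Ccr3, between Ccr1 and Ccr2, and Xcr1, next to Ccr1 on the other side, held 92 and 58 fragments over the 30 libraries and were not tested. Fyco1, beyond Xcr1 and not a receptor gene, rose too (log2FC 0.38 in pooled WT, adjusted p = 0.000291, and 0.45 in pooled KO, adjusted p = 5.27e-05). Only uniquely aligned fragments were counted, so stretches shared by related receptor genes may be undercounted, which was not measured.

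Ccrl2, an atypical receptor that binds the attractant chemerin without signalling through G proteins, rose in all clones, by sizes that differed between them. Untreated libraries read 17.8, 13.98 and 14.6 CPM in WT1, 6.42, 5.92 and 5.97 CPM in KO1 and 14.01, 10.9 and 10.3 CPM in KO2. Treated libraries read 32.6, 27.9 and 31.9 CPM in WT1, 30.01, 31.1 and 36.2 CPM in KO1 and 36.7, 32.7 and 40.1 CPM in KO2. WT2 went from 7.91, 6.74 and 6.79 CPM to 26.9, 23.03 and 22.6 CPM, and WT3 from 8.41, 5.91 and 5.77 CPM to 21.95, 22.3 and 22.02 CPM. WT1 and KO1, which had the highest and the lowest untreated means, overlapped after IFNG. The log2FC was 0.98 ± 0.10 in WT1 (adjusted p = 4.28e-06), 1.63 ± 0.10 in KO2 (adjusted p = 1.08e-08) and 2.44 ± 0.09 in KO1 (adjusted p = 5.85e-11). The response differed between clones (adjusted p = 2.19e-05). It did so with each clone left out in turn, with adjusted p-values up to 0.0121, reached without WT1.

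Cx3cr1, the receptor for the membrane-bound chemokine Cx3cl1 and a gene often used to mark monocytes and resident macrophages, had the widest spread between clones and a similar fall in each. Untreated libraries read 75.3, 58.97 and 65.3 CPM in WT1 against 6.09, 4.804 and 3.52 CPM in WT2 and 3.55, 2.95 and 2.66 CPM in WT3. KO1 read 28.2, 23.3 and 27.98 CPM and KO2 22.5, 20.9 and 18.2 CPM. The KO clones therefore lay between WT1 and the other WT clones, with no overlap with any WT library. After IFNG the means were 32.6 ± 6.497 CPM in WT1 (SD, n = 3), 2.08 ± 0.232 CPM in WT2, 1.46 ± 0.367 CPM in WT3, 14.5 ± 3.21 CPM in KO1 and 12.5 ± 1.81 CPM in KO2. The order of the clones was the same before and after treatment. Within clones the log2FC ranged from -1.21 ± 0.20 in WT2 (adjusted p = 4.87e-05) to -0.73 ± 0.10 in KO2 (adjusted p = 4.54e-05), and a difference of response between clones did not pass the test (adjusted p = 0.833).

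With the WT clones pooled and no term for clone, the Cx3cr1 fall did not pass. Of the 7 receptors 6 passed in pooled WT, against 28.6% of all genes (14.8% higher and 13.9% lower), and Cx3cr1 was the exception (log2FC -1.04 ± 0.88, adjusted p = 0.46). With clone as a term in the model its log2FC was -1.07 (adjusted p = 5.45e-10), and without WT1 it was -1.16 (adjusted p = 0.000324). In pooled KO all 7 passed, against 30.7% of all genes (15.8% higher and 14.8% lower), with Cx3cr1 at -0.79 ± 0.13 (adjusted p = 0.00021). Both counts include Ccr1, whose rise was favoured by the filter on low counts. With at least 10 counts in every library, Ccr1 was not tested, and 5 receptors passed in pooled WT and 6 in pooled KO.

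The complement receptors moved in opposite directions. C5ar1, which drives chemotaxis and degranulation on binding C5a, had lowest, median and highest levels of 350.0, 409 and 465.8 CPM over the 15 untreated libraries and 161, 201 and 270.2 CPM over the 15 treated ones. No treated library reached an untreated one. The fall was smallest in KO1 (log2FC -0.77 ± 0.058, adjusted p = 1.45e-07) and largest in WT3 (-1.23 ± 0.045, adjusted p = 1.22e-13), and it differed between the clones (adjusted p = 0.00115). Without WT3 that difference was lost (adjusted p = 0.328).

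C3ar1, the most abundant of the receptors, rose slightly. Its lowest, median and highest levels were 747, 778 and 885 CPM over the untreated libraries and 882, 954 and 1129.5 CPM over the treated ones. The lowest treated libraries came from WT2 and the highest untreated one from WT1, and within each clone the libraries did not overlap. The log2FC lay between 0.22 ± 0.032 in WT2 (adjusted p = 1.09e-05) and 0.42 ± 0.052 in KO1 (adjusted p = 2.39e-05).

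Fpr1 and Fpr2, receptors for formylated peptides that are prominent on neutrophils, did not pass the filter on low counts in any comparison and were not tested in the main fits. Without that filter, 8 receptors differed between clones in untreated level, against 7 in the main fit, so Fpr1 or Fpr2 passed there. The share of all genes in that setting was not kept. Fpr1 held 0 to 3 fragments in a library and 15 over all 30. A count of 0 allows up to 3 fragments, or 0.079 to 0.193 CPM in the deepest and the shallowest library, a limit that covers counting error only. Fpr2 held 0 to 4 fragments in the libraries of WT1, WT2, WT3 and KO2. KO1 stood apart with 5 to 6 fragments in each untreated and 7 to 8 in each treated library, or 0.212 ± 0.0173 and 0.326 ± 0.0638 CPM. The exons of Fpr2 share 48 of 1296 bases with the adjacent Fpr3 on the same strand, where a fragment is counted for both genes, and Fpr3 held 14 fragments in all.

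Untreated levels differed between the 5 clones for all 7 receptors tested, in a test over the 4 clone terms that 73.2% of all genes passed. The C3ar1 difference no longer passed when either of 2 untreated WT1 libraries was left out (adjusted p = 0.0639 and 0.193). With libraries thinned to equal depth, Ccr1 was not tested and the other 6 passed. Over the 10 pairs of clones, Cx3cr1 differed in all 10. Its widest gap was WT3 against WT1 (log2FC -4.42 ± 0.14, adjusted p = 1.02e-16), and the KO clones differed by -0.36 ± 0.11 (KO2 against KO1, adjusted p = 0.0165). C5ar1 differed in 8 pairs, and Ccr2, Ccrl2 and Cxcr4 in 7 each. Ccr1 differed in the 4 pairs with WT1, where it was higher, and C3ar1 in 3, each with WT1. WT3 against WT2 did not pass for Ccr2 (log2FC 0.00031 ± 0.086) or Ccrl2 (-0.065 ± 0.15), and WT3 was higher for Cxcr4 (0.40 ± 0.071, adjusted p = 0.000727). The share of all genes that differed was 51.7% for WT2 against WT1, 51.3% for WT3 against WT1, 49.4% for KO1 against WT1 and 41.7% for KO2 against WT1. It was 9.3% for WT3 against WT2, 47.4% and 39.1% for KO1 and KO2 against WT2, 51% and 39.6% for KO1 and KO2 against WT3, and 25% between the KO clones.

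The comparison of KO with WT asks whether receptor levels followed the deletion. Among untreated libraries, 1 of the 6 receptors tested passed, against 26.6% of all genes (12.2% higher and 14.4% lower), and Ccr1 was removed by the filter. This was Cxcr4, with lowest, median and highest levels of 52, 61.5 and 79.4 CPM in WT and 37.9, 45.8 and 60.2 CPM in KO libraries, which overlapped. Its log2FC was -0.46 ± 0.11 (adjusted p = 0.0073), and -0.25 without KO1 (adjusted p = 0.226). With counts summed per clone, so that 3 WT were set against 2 KO samples, the adjusted p was 0.444. Taking clones as units, the KO minus WT difference of mean log2(CPM + 0.5) was -0.46, with no overlap of the clones and p = 0.1 in a two-sided exact permutation test, the smallest that the 10 splits allow. The share of all genes without such overlap was not counted.

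After IFNG, 2 of 7 receptors passed, against 23.9% of all genes (10.9% higher and 13% lower). Ccrl2 was higher in KO (log2FC 0.43 ± 0.099, adjusted p = 0.00503), with 30.01, 34.5 and 40.1 CPM as lowest, median and highest KO levels and 21.95, 23.03 and 32.6 CPM in WT. Cxcr4 was lower in KO (log2FC -0.72 ± 0.21, adjusted p = 0.0188), with 4.06, 6.07 and 7.69 CPM in KO and 6.69, 8.6 and 19.1 CPM in WT. Both ranges overlapped between the genotypes. Cxcr4 no longer passed without KO1 (log2FC -0.52, adjusted p = 0.263), and Ccrl2 no longer without KO2 (0.34, adjusted p = 0.0738). Neither passed with counts summed per clone (adjusted p = 0.458 for Cxcr4 and 0.409 for Ccrl2).

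Leaving out WT1 changed the comparison of genotypes most. For Cx3cr1 the log2FC of KO against WT was -0.11 ± 0.75 untreated (adjusted p = 0.935) and 0.14 ± 0.73 after IFNG (adjusted p = 0.909) with all clones. Without WT1 it was 2.58 (adjusted p = 1.95e-08) and 2.94 (adjusted p = 4.71e-09). Ccr2 then passed as lower in KO under both treatments (-0.33, adjusted p = 0.00437, and -0.23, adjusted p = 0.0355). C5ar1 and C3ar1 passed as higher in KO after IFNG (0.40 and 0.12). The number of receptors past the threshold went from 1 to 3 untreated and from 2 to 6 after IFNG. The share of all genes that passed without WT1 was not kept, so these counts have no background to be set against.

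**Figure D3:**
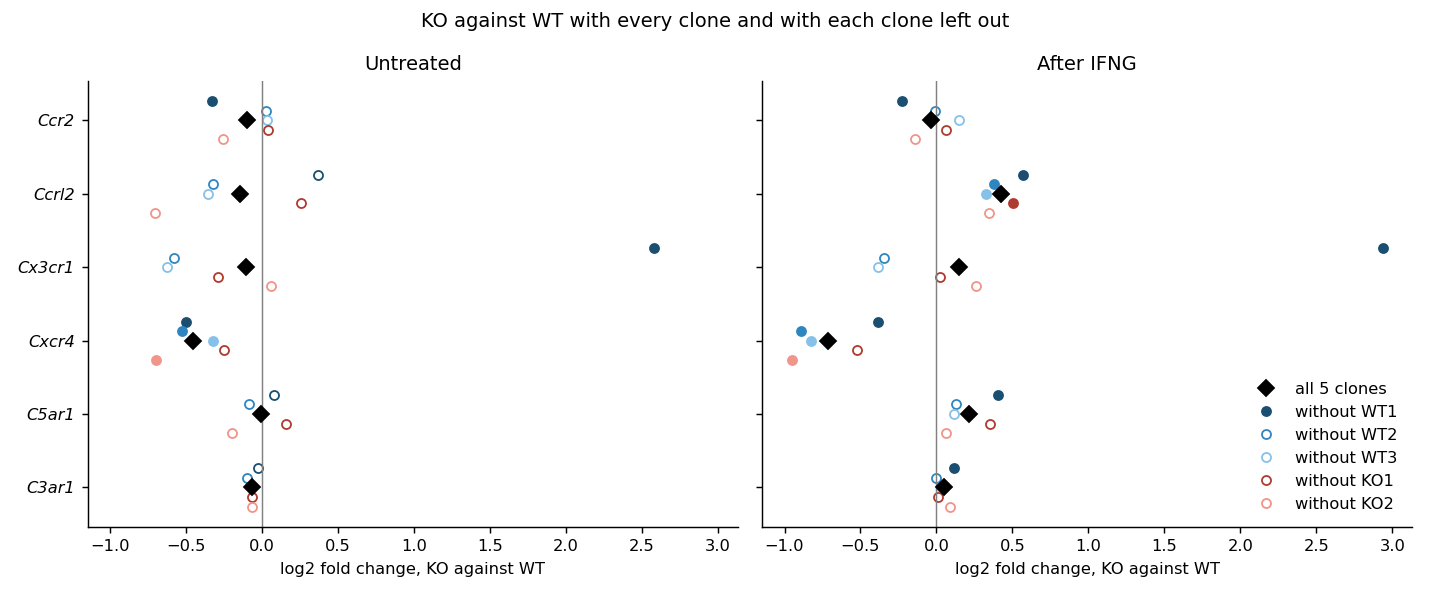
Log2FC of KO against WT (horizontal axis) for 6 receptors, untreated and after IFNG, with all 5 clones (black diamonds) and with each clone left out (circles, filled where the adjusted p from edgeR is below 0.05). The Cx3cr1 point without WT1 lies at 2.58 untreated and 2.94 after IFNG, above all the other Cx3cr1 points.

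Whether the deletion changed the response itself was tested by the interaction of genotype and treatment. None of the 7 receptors passed in edgeR, against 1.02% of all genes (0.679% higher and 0.336% lower), and 3 had an unadjusted p below 0.05. Without a filter on low counts edgeR called 3, Ccrl2 (0.56, adjusted p = 8.88e-09), C5ar1 (0.24, adjusted p = 0.000238) and Cxcr4 (-0.27, adjusted p = 0.0456). DESeq2 called 1, C5ar1 (interaction 0.24, adjusted p = 0.0254), where edgeR gave 0.23 ± 0.065 (adjusted p = 0.0893). The shares of all genes called in these alternatives were not kept. The C5ar1 responses of both KO clones, -0.80 and -0.84 in log2(CPM + 0.5), were smaller than those of the WT clones, -0.87, -1.05 and -1.24, with p = 0.2 in the exact permutation test over clones. KO and WT clones did not overlap for Cx3cr1 either (-0.86 and -0.70 against -1.03 to -0.87, p = 0.2 in the exact test), nor for C3ar1 (0.39 and 0.33 against 0.20 to 0.31, p = 0.2 in the exact test). The nearest clones for Cx3cr1 were close, with WT3 at -0.872 and KO1 at -0.862. How many of all genes separate the genotypes in this way was not counted. The interaction of Ccrl2 was 0.55 ± 0.17 (adjusted p = 0.145). It was 0.20 without KO1 (adjusted p = 0.918) and 0.99 without KO2 (adjusted p = 0.00606). Without WT1, C5ar1 (0.33, adjusted p = 0.000307) and C3ar1 (0.14, adjusted p = 0.0386) passed. For Cxcr4 it was -0.28 ± 0.18 (adjusted p = 0.717), for Cx3cr1 0.26 ± 0.14 (0.618), for Ccr1 0.78 ± 0.39 (0.544), for C3ar1 0.11 ± 0.043 (0.322) and for Ccr2 0.054 ± 0.098 (0.94).

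Clones can also differ in level over whole chromosomes. The median log2 difference from WT, after subtracting the median of all 12257 genes, was -0.24 in KO1 and -0.27 in KO2 on chromosome 6, which holds C3ar1. The C3ar1 log2FC of untreated KO against WT was -0.067 ± 0.04. On chromosome 17, which holds Fpr1 and Fpr2, the median was 0.25 in WT1 (against WT2 and WT3), 0.19 in KO1 and 0.19 in KO2. On chromosome 9, which holds Ccr1, Ccr2, Ccrl2 and Cx3cr1, all 5 medians lay between -0.017 and 0.012. On chromosome 1, which holds Cxcr4, the median was -0.08 in KO1 and -0.065 in KO2. The untreated KO minus WT difference of Cxcr4, with clones as units, was -0.46. The part of these shifts in the levels of single receptors was not tested.

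Of 16 other chemoattractant receptors, 7 reached 1 CPM in some clone and treatment. All 7 changed with IFNG in both pooled WT and pooled KO, with 3 higher and 4 lower in each. Of all genes tested, 28.6% passed in pooled WT (14.8% higher and 13.9% lower). In pooled KO 30.7% passed (15.8% higher and 14.8% lower). In pooled WT, the median log2FC over all genes tested was -0.0028 and over the 7 chemoattractant receptors -0.47. S1pr1, a receptor for sphingosine 1-phosphate, had the largest fall of the 7, from 159 ± 2.64 to 29.2 ± 1.75 CPM in WT2 (log2FC -2.09 ± 0.14 in pooled WT, adjusted p = 1.96e-10). C5ar2, another receptor for C5a, Gpr183, an oxysterol receptor, and P2ry6, a nucleotide receptor, fell with log2FC of -0.73, -0.90 and -0.47. C5ar2 and Gpr183 no longer passed in pooled WT without WT2 (adjusted p = 0.15 and 0.18) or without WT3 (adjusted p = 0.0954 and 0.144). P2ry12, a receptor for ADP, rose by 1.06 ± 0.18, and Ptafr, the receptor for platelet-activating factor, by 0.51 ± 0.068. Ltb4r1, a receptor for leukotriene B4, rose by 3.96 ± 0.29 from untreated group means under 0.1 CPM. At such levels it passed the filter on low counts only through its treated libraries. The rise of Ltb4r1 was favoured by the filter and cannot be weighed against the shares of all genes.

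**Figure D4:**
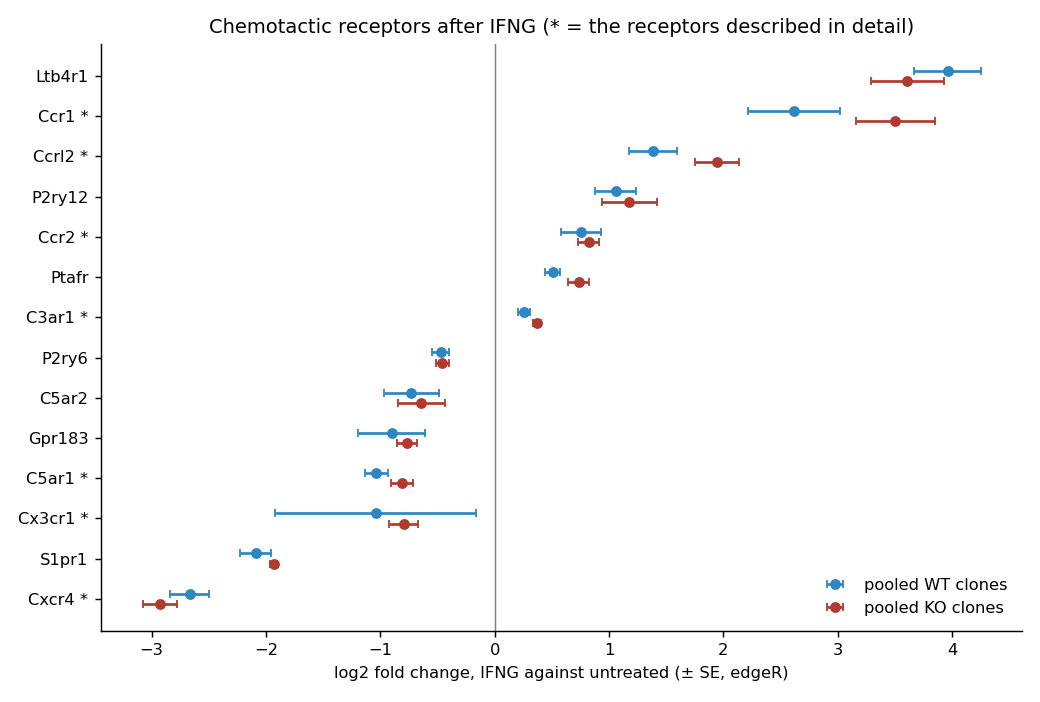
Log2FC of IFNG against untreated libraries (horizontal axis, error bars ± SE from edgeR) for the 7 expressed receptors, marked by asterisks, and the 7 other chemoattractant receptors with at least 1 CPM in some clone and treatment, in pooled WT (blue) and pooled KO (red). Each gene lies on the same side of 0 in both genotypes, and Cx3cr1 in pooled WT has the widest error bar.

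The lists of ligands, receptor signalling and receptor desensitisation are set beside the shares of all genes tested. In pooled WT 14.8% of all genes rose and 13.9% fell, and in pooled KO 15.8% rose and 14.8% fell. Of 18 ligand genes, 10 were tested in pooled WT, of which 4 rose and 2 fell, with a median log2FC of 0.26. In pooled KO, of 11 tested 6 rose and 1 fell. The gene tested in pooled KO only, Ccl8, went from 3 to 78 fragments summed over the 3 libraries of KO1 and from 0 to 55 in KO2. Ccl8, counted among the 6 that rose, passed the filter on low counts only through its treated libraries. Its rise was favoured by the filter and cannot be weighed against the shares of all genes. In pooled WT the largest changes were those of Ccl12 (3.21 ± 0.11), Ccl7 (3.10 ± 0.18) and Ccl2 (2.09 ± 0.089), all ligands of Ccr2. Ccl2 went from 108 ± 15.3 to 497 ± 84.9 CPM in WT1 (SD, n = 3). In pooled WT, of 15 tested genes of receptor signalling 3 rose and 3 fell, with a median log2FC of -0.0094. The largest changes there were in Pik3r5 (0.74 ± 0.13) and Pik3cg (-0.70 ± 0.062), the regulatory and catalytic subunits of phosphoinositide 3-kinase gamma, and in Prex1 (-0.53 ± 0.14), an activator of Rac. Of 11 tested genes of receptor desensitisation, 1 rose and 5 fell in pooled WT (median log2FC -0.25), with the largest changes in Rgs2 (-1.13 ± 0.085), Rgs1 (-0.71 ± 0.15) and Rgs18 (-0.69 ± 0.25), regulators that shorten G-protein signalling. In pooled KO, of the 11 tested 0 rose and 5 fell, among them Rgs2 (-0.93 ± 0.25, adjusted p = 0.00998). Rgs1 (-0.20 ± 0.22, adjusted p = 0.565) and Rgs18 (-0.54 ± 0.34, adjusted p = 0.275) did not pass there. In pooled WT Rgs18 did not pass without WT2, without WT3 or without a filter on low counts (log2FC -0.60, -0.71 and -0.70).

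Across the 10 combinations of clone and treatment, the genes whose mean log2(CPM + 0.5) followed a receptor most closely, out of 12993 genes with at least 1 CPM in some combination, were compared by Pearson's r as a description. For Cxcr4 they were Stard8, Usp28 and Abcc1, which spanned 0.24 to 1.55 on the log2 scale against 3.77 for Cxcr4. Those for C5ar1 were Mafg, Nmt2 and Mmd. For Cx3cr1 they were Gpi1, Lsp1 and Clip2, whose own levels spanned 0.87 to 1.20 on the log2 scale against 5.11 for Cx3cr1. For Ccr1 they were Whamm, Golgb1 and Csgalnact2, for Ccr2 Erap1, Rab3il1 and Gja1, for Ccrl2 Marcks, Piwil2 and Pim1 and for C3ar1 Cep170, Gdap2 and Idnk, and r for all 7 lay between 0.98 and 0.99. The 10 points share clones and libraries, and these r values are high by selection, as the highest among all genes compared. A high r says nothing of the size of a change. Golgb1 spanned 0.46 against 3.22 for Ccr1, and Gja1 5.27 against 1.59 for Ccr2.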

How the data were processed

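RNA-seq of poly(A) RNA was done on 30 libraries of J774A.1 clones. The deposited tables give unnormalized counts, 1 value per gene and library. Per the labels and methods, reads of 150 bases were trimmed with BBDuk and aligned to mm10 with HISAT2 2.1.0, technical replicates were merged with SAMtools 1.10, and uniquely aligned fragments were counted on the stranded exons with featureCounts 1.6.2. The file header names Gencode vM18, the methods RefSeq, and fragments over overlapping genes count for each. The other 13 deposited tables held identical counts. Of 54146 identifiers, 54079 matched a symbol.

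The quasi-likelihood test of edgeR 4.0.16 was used in R 4.3.3 after filterByExpr and TMM, with Benjamini-Hochberg adjustment over all genes tested and a threshold of 0.05. The SE of a log2FC was taken from its size and its F statistic (log2FC over the root of F). Only the libraries of a comparison entered its fit, and the interaction used all 30 with clone as a term. Fits were tested on simulated data. CPM used TMM factors and a pseudocount of 0.5 on log scales. Clones as units were compared by exact permutation. Table columns carry no replicate numbers, and library order carries no meaning. Replicate pairs of 1 group differed by more than sampling noise (chi-square per degree of freedom 1.95 to 19.5 over 30 pairs). Labels name more than 1 RNA input and adapter kind without assigning them to libraries, so such a batch was not tested. Depth ran from 15566122 to 37992642 fragments, and the SE gives the precision reached. Exon lengths in the deposited tables were used for FPKM.

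The receptors, lists and tests were chosen with earlier results of these data known. Named genes are the 9 receptors, other chemotactic receptors with at least 1 CPM in some clone and treatment (those for chemokines are not reported here), the 3 genes of each further list with the largest absolute log2FC past the threshold in pooled WT, and the 3 genes most like each receptor. Fyco1, Ccr3 and Xcr1 were named after their values were seen, as were the motifs searched. Alternatives were DESeq2 1.42.0, RLE factors, other count filters, thinning to the lowest library total (seed 11), 1 fit over all libraries, clone as a term, counts summed per clone, other pseudocounts and leaving out libraries or clones. Leaving out each clone for the differences of response between clones, and FPKM without TMM, were added after seeing the data.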

Additional observations from a re-analysis of the deposited data

Results flagged for a closer look

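The response to IFNG differed between the 5 clones for 3 of the 7 receptors tested, by the test over the clone-by-treatment terms in edgeR. The adjusted p was 2.19e-05 for Ccrl2, 0.000543 for Cxcr4 and 0.00115 for C5ar1. All 5 clones moved the same way for each, with log2FC of 0.98 to 2.44 for Ccrl2, -3.14 to -2.08 for Cxcr4 and -1.23 to -0.77 for C5ar1.

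Single libraries stood apart from the rest of their pooled group by Dixon's criterion on CPM in 2 of 28 groups examined, and chance alone flags about 1 in 20. For Ccr1, 1 untreated WT1 library read 1.63 CPM, above all other untreated WT libraries. For Cxcr4, 1 treated WT1 library read 19.1 CPM, above all other treated WT libraries. Both groups pool 3 clones, and what sets these libraries apart was not tested.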

How the results depend on the processing

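No paired analysis was possible because the columns of the count tables carry no replicate numbers, so the replicate block that had been planned was not run. Within clones, the count of receptors changed by IFNG stayed at 7 with each library left out and under the other settings, except for 6 in WT2, WT3, KO1 and KO2 with at least 10 counts in every library, where Ccr1 was no longer tested. Every tested receptor kept its direction and its call there. Leaving out each clone gave counts of 6 to 7 in pooled WT, 7 to 7 in pooled KO, 0 to 3 for KO against WT untreated, 1 to 6 after IFNG and 0 to 2 for the interaction. Counts summed per clone gave 0 of the receptors for KO against WT in either treatment (0 and 1 at an unadjusted p below 0.05). For the interaction, DESeq2 gave 1 and no filter on low counts gave 3 (Ccrl2, C5ar1 and Cxcr4). The shares of all genes that passed under the alternatives were not kept, so these counts have no background. With a pseudocount of 0.1, 1 response, that of Cx3cr1, reached the smallest p of the exact clone test, against 0 in the main setting. That smallest p is 0.1 and does not pass 0.05. The KO minus WT response of Ccr1 turned to 0.36 with this pseudocount (p = 0.3 in the exact test). The largest chromosome median moved from 0.268 to 0.274 with at least 10 CPM. Without a filter, C5ar1 in untreated KO against WT turned to 0.00182. Differences of KO against WT that had not passed changed sign with a clone left out: untreated, Ccr2 ranged from -0.33 to 0.037, Ccrl2 from -0.70 to 0.37, Cx3cr1 from -0.63 to 2.58 and C5ar1 from -0.20 to 0.16. After IFNG, Ccr2 ranged from -0.23 to 0.15, Cx3cr1 from -0.39 to 2.94 and C3ar1 from -0.0022 to 0.12. The interaction ranged from -0.030 to 0.11 for Ccr2 and -0.50 to 0.11 for Cxcr4. The cause of these changes was not tested. In pooled WT, Prex1 did not pass without WT3 (-0.51). Depth limits Ccr1 when untreated, Fpr1 and Fpr2.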
